A study of Mus musculus with 4 samples.

Results

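Collagen chain genes are here the 44 genes of the mouse annotation whose symbol is *Col*, a type number, the letter a and a chain number, out of 39179 genes listed in each library. They were taken by symbol alone, so no expression value entered the choice. All 44 are counted below whether or not they were expressed, though not each is named. By the kind of assembly their chains form, 11 are fibrillar, 9 network-forming, 9 fibril-associated with interrupted helices (FACIT), 6 beaded-filament, 4 transmembrane, 2 multiplexins, 1 the anchoring fibril collagen and 2 belong to none of these groups. The cells were B16F1, an established line of mouse melanoma, and the study asked how tumor repopulating cells (TRCs) differ in gene expression from the parental line. The controls were 2 libraries of parental B16F1 cells from 2D culture. The TRC group had 2 libraries of cells that had grown into multicellular spheroids in 3D fibrin gels of 90 Pa stiffness and were isolated on day 5. All 4 libraries were made from one cell line with no transgene or drug named. TRCs are the survivors of the gel, so selection and growth in the gel cannot be told apart. The libraries of each group carry the replicate numbers 1 and 3, and no source used here says that they came from separate cultures, so p-values measure only the spread between these libraries.

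Collagens are secreted or membrane-bound proteins whose chains wind around each other into a helix. Fibrillar collagens build the load-bearing fibrils of skin, bone and cartilage, FACIT collagens sit on the surface of these fibrils, and collagen IV forms the sheet-like network of basement membranes. Chains are joined inside the endoplasmic reticulum after prolyl and lysyl hydroxylation, and several types need particular partner chains. In a melanoma the fibrillar matrix is known to be laid down mainly by stromal fibroblasts, while tumor cells can make basement membrane and pericellular collagens of their own.

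Each library held between 35948295 and 43511554 counts on genes, and 3 counts, taken here as the detection floor, equal 0.0690 to 0.0835 CPM, that is, counts divided by library size. Levels in CPM below use the TMM-adjusted library size. Alignments that were not unique made up 15.2% of the alignments in control replicate 1 and 25.2% in TRC replicate 3. The 7 melanocyte lineage markers summed to between 15700 and 26700 CPM in every library. The fibroblast markers summed to between 1.35 and 2.2 CPM, with *Dcn*, *Dpt*, *Thy1* and *Fap* at 3 counts or fewer in each library. The endothelial markers summed to between 0.567 and 2.50 CPM, with *Cdh5*, *Kdr* and *Emcn* at 3 counts or fewer. The leukocyte markers summed to between 1.64 and 4.16 CPM, and 6 of the 7, including *Ptprc*, had 3 counts or fewer in each library.

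Collagen chains were a small part of the transcriptome in both groups. They took 0.0326% and 0.0212% of all gene counts in the control libraries, here and below in the order of replicate 1 and replicate 3, and 0.0286% and 0.0197% in TRCs. The groups overlapped. A count was found for 38 and 28 of the 44 genes in the control libraries and for 32 in each TRC library. After the study's filter, which removes a gene with under 1 CPM in at least 3 of the 4 libraries, 21 collagen chain genes were left for testing and 23 were not. *Col2a1* and *Col10a1* passed this filter only through the TRC libraries. Per kilobase of exon, *Col5a1*, *Col5a3* and *Col4a5* had the 3 highest means in each group. *Col4a5* was among the 3 highest in all 4 libraries, while *Col15a1* took the place of *Col5a3* in control replicate 3 and *Col11a2* that of *Col5a1* in TRC replicate 1. Even the leading chains were of modest level, since between 43.1% and 44.0% of the 11398 tested genes found in the annotation had a lower mean CPM per kilobase.

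**Figure D1:**
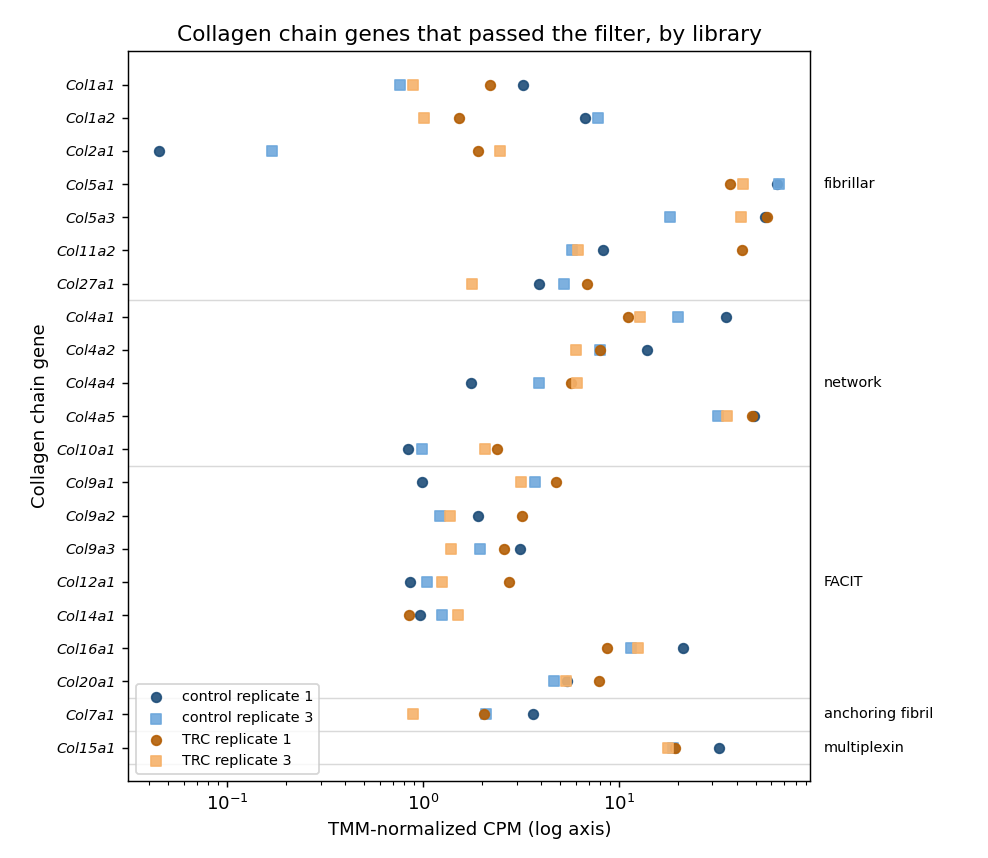
Level of the 21 collagen chain genes that passed the filter, in TMM-normalized CPM on a log axis, with a circle for replicate 1 and a square for replicate 3 of each group (blue, control; orange, TRC). *Col5a1*, *Col5a3* and *Col4a5* lie to the right at 18.2 to 65.8 CPM, *Col2a1* has its controls far to the left of its TRCs, and TRC replicate 1 stands alone for *Col11a2*.

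Comparing TRCs with parental control cells, 5 of the 21 collagen chain genes were differentially expressed at a false discovery rate (FDR) under 0.05 in edgeR's exact test. *Col2a1* and *Col11a2* were upregulated, and *Col1a2*, *Col5a1* and *Col4a1* were downregulated. This was 23.8% of the members tested, beside 15.9% of all genes tested. The 2 upregulated members were 9.52%, beside 8.81% of all genes, and the 3 downregulated members were 14.3%, beside 7.05%. With edgeR's quasi-likelihood test, 4 members were called (19.0%), beside 9.18% of all genes. The median log2 fold change of the 21 members was 0.0463, with 11 genes higher and 10 lower, while that of all genes tested was 0.00336. The TRC values were both above the control values for 4 members (19.0%, beside 30.2% of all genes) and below them for 5 (23.8%, beside 30.4%), and for the other 12 the groups overlapped. Among the 4 were *Col2a1* and *Col10a1*, which passed the filter only through the TRC libraries. Once tested, these genes could not overlap between the groups, so their place among the 4 carries no information. Without TRC replicate 1 only *Col2a1* and *Col1a2* were called, and without TRC replicate 3 these and *Col11a2*. In bulk RNA, fewer cells expressing a chain and less of its RNA per cell cannot be told apart.

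**Figure D2:**
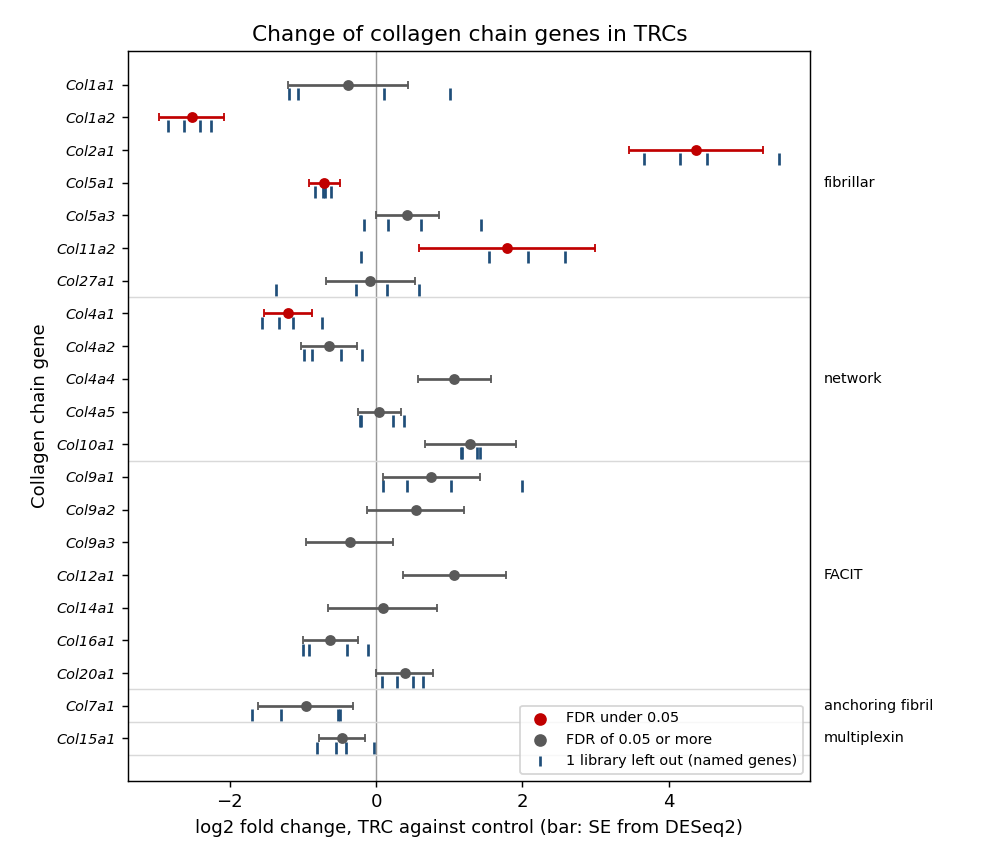
Log2 fold change of the 21 collagen chain genes, TRC against control, with the standard error from DESeq2 as a bar and red points for FDR under 0.05, ordered by collagen class. Blue ticks give the fold change of the named genes with 1 library left out. Those of *Col1a2* stay between -2.85 and -2.26 and those of *Col2a1* between 3.66 and 5.51, while those of *Col11a2* reach -0.20.

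The fibrillar class held 4 of the 5 called genes, 2 in each direction, among its 7 tested members (57.1%, beside 15.9% of all genes). The quasi-likelihood test called 3 of them, and *Col11a2* was not called without TRC replicate 1. Its members therefore did not move together. *Col5a1* (ENSMUSG00000026837), on chromosome 2 at 27886425-28039514 of GRCm38, encodes the chain common to most collagen V, which starts fibrils and limits their width. It had 64.3 and 65.8 CPM in the control libraries and 36.9 and 42.8 CPM in TRCs, so the groups did not overlap and the control values were close together. The log2 fold change was -0.71 (SE 0.21, FDR = 0.0176 in edgeR's exact test). Per kilobase it ranked 2 and 1 among the tested chains in the control libraries and 4 and 3 in TRCs. Its call was lost without control replicate 3 (FDR = 0.0977), TRC replicate 1 (FDR = 0.244) or TRC replicate 3 (FDR = 0.0847).

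The stretch before the start of *Col5a1* is shown because the gene had the highest mean level per kilobase in control cells and was downregulated in TRCs. It is the window of 250 bases upstream of the RefSeq start, at chr2:27886175-27886424 on the plus strand of GRCm38.p6, with GC boxes (GGGCGG or, on the other strand, CCGCCC) in capitals.
*Col5a1*: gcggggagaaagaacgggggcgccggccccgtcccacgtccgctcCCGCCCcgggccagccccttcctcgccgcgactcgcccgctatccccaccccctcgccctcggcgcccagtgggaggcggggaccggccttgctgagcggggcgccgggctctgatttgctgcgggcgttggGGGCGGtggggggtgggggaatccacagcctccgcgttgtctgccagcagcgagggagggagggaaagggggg
It holds 2 GC boxes, with capitals that begin at positions -205 and -73, where -1 is the base before the start. A GC box was found in 32.7% of 32851 mouse windows of 250 bases and in 22 of the 38 windows matched to 35 collagen chain genes (57.9%). A CCAAT box (CCAAT or ATTGG) was in 33.8% of all windows and 13 of the 38 (34.2%), and a TATA box (TATAAA or TTTATA) was in 12.4% and 5 of the 38 (13.2%). These are matches of letters, and no binding was measured.

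*Col5a3*, the minor collagen V chain, had 55.5 and 18.2 CPM in control cells and 57.1 and 42.0 CPM in TRCs. The low value is control replicate 3, and the groups overlapped. The log2 fold change was 0.43 (SE 0.43, FDR = 0.527), and without control replicate 1 it was 1.44 and called (FDR = 0.000372). Per kilobase it was the highest tested chain in control replicate 1 and in both TRC libraries, and ranked 5 in control replicate 3. The ratio of *Col5a1* to *Col5a3* per kilobase, a comparison added after their values were seen, was 0.930 and 2.90 in the control libraries and 0.518 and 0.817 in TRCs. The ratio was lower in both TRC libraries, and the control libraries differed from each other by more than TRC replicate 3 differed from control replicate 1. The other collagen V chain gene, *Col5a2*, did not pass the filter, with 6 and 1 counts in control cells and 3 in each TRC library.

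*Col1a2* (ENSMUSG00000029661), on chromosome 6 at 4504814-4541544, encodes the second chain of collagen I, the main fibrillar collagen of skin and bone. It had 6.70 and 7.79 CPM in control cells and 1.52 and 1.01 CPM in TRCs, well apart. It fell by 2.52 on the log2 scale (SE 0.44, FDR = 4.15e-06 in edgeR's exact test). This was the most stable of the downregulated calls, since the gene was called in every fit that left out 1 library. Its partner *Col1a1*, the other chain of collagen I, did not follow. *Col1a1* had 3.24 and 0.765 CPM in control cells and 2.19 and 0.889 CPM in TRCs, with replicate 1 above replicate 3 in each group (log2 fold change -0.38, FDR = 0.768). The ratio of *Col1a1* to *Col1a2* per kilobase was therefore 0.915 and 0.186 in control cells and 2.73 and 1.67 in TRCs, higher in both TRC libraries. Its absolute size depends on the transcripts counted, because the union of *Col1a2* exons is 12426 bases and its longest transcript 5348. A difference between the changes of the partners was not tested.

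The part of the *Col1a2* RefSeq promoter window that is free of annotated exons is shown because the gene had the largest fall among the tested members. It lies at chr6:4505370-4505492 on the plus strand, inside the longer GENCODE gene model, with GC boxes in capitals.
*Col1a2*: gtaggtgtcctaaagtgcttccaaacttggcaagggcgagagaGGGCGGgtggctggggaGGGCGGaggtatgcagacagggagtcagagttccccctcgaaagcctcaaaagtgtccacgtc
The capitals begin at positions -205 and -188, and no CCAAT or TATA box was found in this stretch.

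*Col2a1* (ENSMUSG00000022483), on the minus strand of chromosome 15 at 97975602-98004695, encodes the chain of collagen II, the main fibril protein of cartilage. It was counted 2 and 6 times in the control libraries and 79 and 103 times in TRCs, or 0.0450 and 0.170 CPM against 1.90 and 2.48 CPM. The log2 fold change was 4.37 (SE 0.92, FDR = 2.23e-08 in edgeR's exact test). The ratio of summed counts, scaled to library size, was 21.8, with a 95% exact interval of 10.8 to 51.3 that covers counting error only. In level, *Col2a1* had the lowest mean of the 21 tested chains per kilobase in control cells (0.0116 CPM per kilobase) and ranked 16 in TRCs (0.237 CPM per kilobase). With 1 library left out, its log2 fold change stayed between 3.66 and 5.51. These fits kept the filter set on all 4 libraries, which *Col2a1* passed only through the TRC libraries. Its 2 counts in control replicate 1 lie under the floor of 3.

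*Col11a2* (ENSMUSG00000024330), on chromosome 17 at 34039437-34066685, encodes a chain of collagen XI, which copolymerizes with collagen II in cartilage fibrils. It had 8.28 and 5.75 CPM in control cells and 42.3 and 6.18 CPM in TRCs. The second TRC value lies between the controls, and TRC replicate 1 was 6.84 times TRC replicate 3. The log2 fold change was 1.79 (SE 1.20, FDR = 0.0379 in edgeR's exact test), but the FDR was 0.151 in the quasi-likelihood test and 0.321 in DESeq2. Without TRC replicate 1 the log2 fold change was -0.20 (FDR = 0.928), and it also lost its call without either control library (FDR = 0.0815 and 0.315). The study had singled out *Col2a1* and *Col11a2* as TRC markers from these same libraries, so their direction here is not independent evidence. For *Col2a1* the study also reported higher RNA in TRCs by quantitative PCR and a higher protein signal by immunofluorescence. It reported a higher protein signal in TRCs of a metastatic derivative of the line as well. The sources used here describe no such measurement of *Col11a2*. *Col11a1*, the partner chain gene, did not pass the filter, with 3 and 0 counts in control cells and 5 and 1 in TRCs.

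The *Col11a2* promoter window is shown because the gene was called and yet differed so widely between the TRC libraries. It is the 250 bases at chr17:34038888-34039137 on the plus strand, with GC boxes and a TATA box (TATAAA) in capitals.
*Col11a2*: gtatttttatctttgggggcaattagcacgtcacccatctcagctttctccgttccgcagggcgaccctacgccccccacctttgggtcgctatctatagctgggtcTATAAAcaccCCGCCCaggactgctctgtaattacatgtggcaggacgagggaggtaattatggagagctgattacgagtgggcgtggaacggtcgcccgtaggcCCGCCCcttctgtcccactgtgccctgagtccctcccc
From left to right the capitals mark the TATA box at position -143 and GC boxes at -133 and -38.

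*Col27a1*, a fibrillar collagen of cartilage with a shorter helix, had 3.89 and 5.24 CPM in control cells and 6.88 and 1.78 CPM in TRCs. The TRC libraries lay on either side of the controls (log2 fold change -0.08, FDR = 0.952). *Col24a1*, a related gene known from developing bone, did not pass the filter. It was counted 4 and 0 times in control cells and 57 and 3 times in TRCs, so the excess was again in TRC replicate 1. Its ratio of summed counts was 14.4, with a 95% exact interval of 5.33 to 54.5 for counting error only, and TRC replicate 1 held 57 of the 60 TRC counts. *Col3a1*, the collagen of soft tissues, had 1 and 0 counts in control cells and 6 and 1 in TRCs.

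Of the 9 network-forming genes, 5 passed the filter and 1, *Col4a1*, was called (20% of those tested, beside 15.9% of all genes). *Col4a1* (ENSMUSG00000031502), on the minus strand of chromosome 8 at 11198423-11312826, encodes the main chain of collagen IV in basement membranes. It had 35.2 and 20.0 CPM in control cells and 11.2 and 12.8 CPM in TRCs, without overlap. It fell by 1.21 on the log2 scale (SE 0.33, FDR = 0.0066 in edgeR's exact test). The call was lost without control replicate 1 (log2 fold change -0.74, FDR = 0.166), TRC replicate 1 (FDR = 0.135) or TRC replicate 3 (FDR = 0.0686). *Col4a2*, its obligate partner in the common collagen IV helix, starts on the opposite strand at 11312805-11449287, and the exons of the genes share 22 bases. *Col4a2* had 13.9 and 8.05 CPM in control cells and 7.96 and 6.06 CPM in TRCs, also without overlap, but its fold change of -0.65 was not called (SE 0.38, FDR = 0.310). The ratio of *Col4a1* to *Col4a2* per kilobase was 2.25 and 2.21 in control cells and 1.24 and 1.87 in TRCs, lower in both TRC libraries.

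In each of the other collagen IV pairs only 1 gene passed the filter. *Col4a5*, a chain of specialised basement membranes such as that of the kidney, ranked 3 and 2 per kilobase in the control libraries and 2 in each TRC library. It had 48.8 and 32.1 CPM in control cells and 48.0 and 35.6 CPM in TRCs, overlapping throughout (log2 fold change 0.05, SE 0.29, FDR = 0.938). *Col4a6*, its neighbor on chromosome X, had 3 and 1 counts in control cells and none in TRCs. For the neighbors *Col4a4* and *Col4a3*, which share a start region and are singled out here after their values were seen, only *Col4a4* passed. *Col4a4* had 1.75 and 3.88 CPM in control cells and 5.68 and 6.13 CPM in TRCs. Its log2 fold change of 1.07 had an unadjusted p of 0.0282 in edgeR's exact test and an FDR of 0.121, and it was called without control replicate 3. *Col4a3* had 8 and 0 counts in control cells and 0 and 6 in TRCs.

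The interval between *Col4a4* and *Col4a3* is shown because its genes point away from each other and only *Col4a4* passed the filter. It is the 71 bases at chr1:82586850-82586920, written here along the minus strand, the strand of *Col4a4*, and holds none of the 3 motifs, so it has no capitals.
*Col4a4* to *Col4a3*: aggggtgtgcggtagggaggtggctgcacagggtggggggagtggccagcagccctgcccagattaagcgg
Bases G and C made up 69.0% of it.

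*Col10a1*, the network collagen of hypertrophic cartilage, had 0.832 and 0.992 CPM in control cells and 2.38 and 2.07 CPM in TRCs. The groups did not overlap, which was certain for a gene that passed the filter only through the TRC libraries. The log2 fold change of 1.29 was just short of the threshold (SE 0.62, FDR = 0.0542 in edgeR's exact test). It shares 18 exon bases with *Nt5dc1* on the opposite strand, which had 1158 and 910 counts in control cells and 806 and 949 in TRCs, and the strand setting of the counting is not given in the sources used here. *Col8a2*, of vessel wall and corneal networks, did not pass the filter with 6 and 5 counts in control cells and 10 and 4 in TRCs.

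No FACIT gene was called, beside 15.9% of all genes tested, a share that gives few calls in a class of this size. Of 9 genes 7 passed the filter, with log2 fold changes between -0.62 and 1.07 and FDRs between 0.179 and 0.946. In edgeR's exact test 0 of them reached 0.05 before adjustment, and none was called by the quasi-likelihood test or DESeq2. *Col16a1*, found in skin and cartilage matrices, was the FACIT gene with the highest mean per kilobase, although *Col20a1* was above it in TRC replicate 1. It had 21.3 and 11.5 CPM in control cells and 8.73 and 12.6 CPM in TRCs (log2 fold change -0.62, FDR = 0.298). *Col20a1* had 5.42 and 4.68 CPM in control cells and 7.89 and 5.38 CPM in TRCs (log2 fold change 0.39, FDR = 0.595). *Col9a1*, which coats cartilage fibrils of collagen II, had 0.990 and 3.74 CPM in control cells and 4.79 and 3.17 CPM in TRCs, with control replicate 1 standing low (log2 fold change 0.76, FDR = 0.431). Without control replicate 3 it was called, at a log2 fold change of 2.0 (FDR = 0.0242), and without control replicate 1 the log2 fold change was 0.09 (FDR = 0.956). The ratio of *Col9a1* to its partner *Col9a3* per kilobase was 0.241 and 1.45 in control cells and 1.41 and 1.73 in TRCs. The largest rise among the tested FACIT genes was that of *Col12a1*, singled out here after its values were seen. It had 0.855 and 1.05 CPM in control cells and 2.74 and 1.25 CPM in TRCs, without overlap (FDR = 0.179 in edgeR's exact test). *Col19a1* and *Col22a1* did not pass the filter, with at most 2 counts in any library.

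*Col7a1*, the collagen of the anchoring fibrils that fasten the epidermis to the dermis, had 3.62 and 2.1 CPM in control cells and 2.05 and 0.889 CPM in TRCs. The TRC values lay below the controls by a narrow margin (log2 fold change -0.96, FDR = 0.239). *Col15a1*, a multiplexin of the basement membrane zone, had 32.3 and 19.0 CPM in control cells and 19.3 and 17.7 CPM in TRCs and ranked between 3 and 5 per kilobase in the libraries (log2 fold change -0.47, FDR = 0.357). Neither reached 0.05 before adjustment in edgeR's exact test or had a call by the quasi-likelihood test or DESeq2. *Col18a1*, the other multiplexin and the source of endostatin, had at most 5 counts.

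Summed over the 21 tested chains per kilobase, fibrillar chains made up 41.3% and 42.2% of the collagen chain level in control cells and 49.9% and 43.3% in TRCs. Network chains made up 32.8% and 31.8% in control cells and 27.7% and 31.2% in TRCs. The fibrillar share was higher and the network share lower in both TRC libraries, but TRC replicate 3 was close to the controls. A comparison without *Col11a2* was added after its values were seen. The fibrillar share was then 39.6% and 40.5% in control cells and 40.8% and 41.5% in TRCs. The network share was then 33.7% and 32.7% in control cells and 32.7% and 32.1% in TRCs, with TRC replicate 1 at the value of control replicate 3. FACIT chains made up between 13.6% and 15.8% in all 4 libraries. Multiplexin chains, here *Col15a1*, made up 11.5% and 10.1% in control cells and 7.57% and 9.50% in TRCs. The summed level itself was 44.2 and 29.5 CPM per kilobase in control cells and 40.2 and 29.4 in TRCs, so the replicate number separated the libraries more than the group did. In each library 3 genes held between 52.0% and 56.1% of the level.

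**Figure D3:**
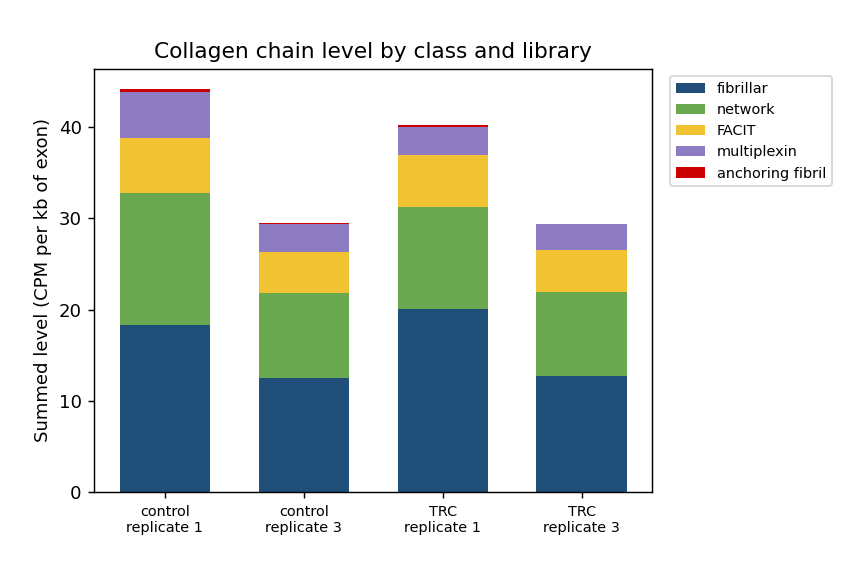
Summed level of the tested collagen chain genes in each library, in TMM-normalized CPM per kilobase of exon, stacked by class. Replicate 1 stands at 44.2 (control) and 40.2 (TRC) and replicate 3 at 29.5 and 29.4, and the fibrillar block is the largest in every library.

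The 23 genes that did not pass the filter had few counts, from 0 to 57 in a library. No count was found in any library for 6 of them, *Col6a2*, *Col6a4*, *Col6a5*, *Col6a6*, *Col13a1* and *Col26a1*. The highest count in any library was 3 or fewer for 14 genes, these 6 included, and over 3 for 9. All 6 collagen VI genes, whose chains form the beaded filaments around cells of connective tissue and muscle, had at most 2 counts, which shows only that they were not detectable at this depth. Of the 4 transmembrane genes none passed. *Col23a1*, a cell-surface collagen, was the most counted, with 28 and 9 counts in control cells and 27 and 16 in TRCs. *Col25a1*, known from neurons, had between 2 and 6 counts, and *Col17a1*, the hemidesmosome collagen of keratinocytes, had at most 3.

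**Figure D4:**
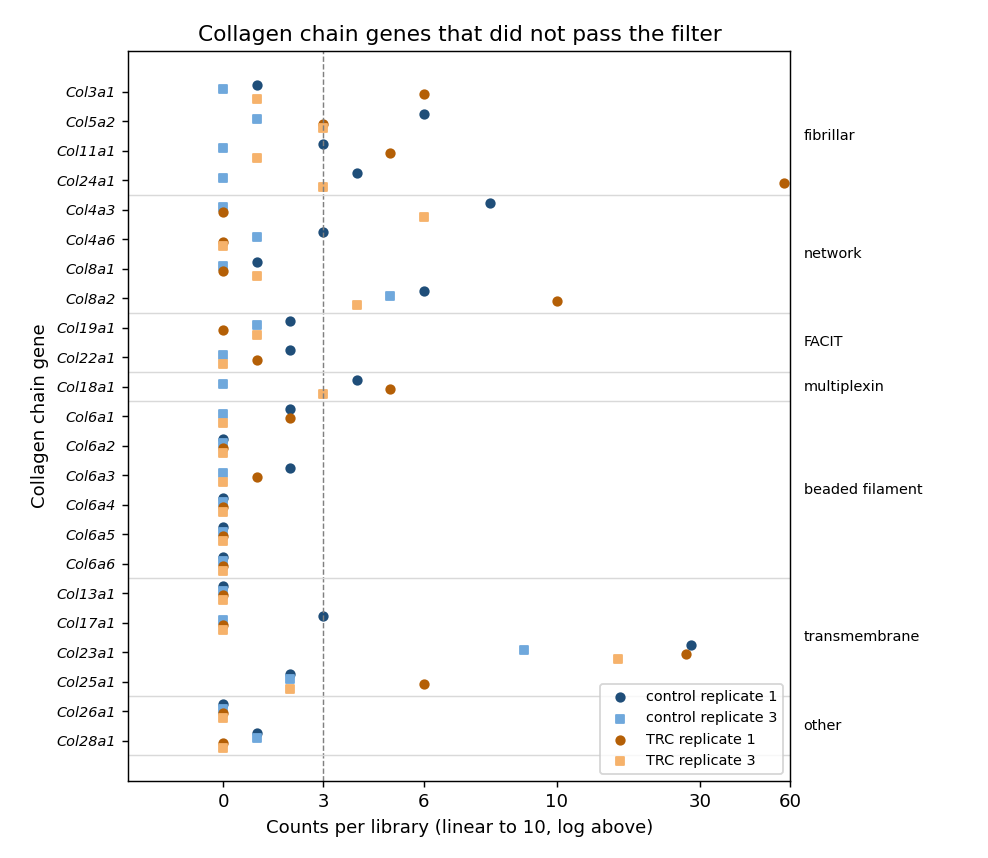
Counts per library of the 23 collagen chain genes that did not pass the filter, on an axis that is linear to 10 and logarithmic above, with the dashed line at 3 counts. *Col24a1* in TRC replicate 1 (57 counts) and *Col23a1* (9 to 28 counts) stand to the right, and the 6 collagen VI genes lie at 0 to 2 counts.

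Libraries of the same group differed widely for some collagen chain genes. A difference of over 2-fold, on the scale of log2(CPM + 0.5), was found between the control libraries for 3 members, *Col9a1*, *Col1a1* and *Col5a3* (14.3%), beside 3.61% of all genes tested. Between the TRC libraries it was found for 2, *Col11a2* and *Col27a1* (9.52%), beside 3.20% of all genes. Replicate 1 was the higher library for 12 of 21 members in control cells (57.1%, beside 49.6% of all genes) and 15 of 21 in TRCs (71.4%, beside 49.9%). The genes that did not pass the filter had 78 counts in control replicate 1 and 20 in replicate 3, and 123 and 41 in TRCs. *Col24a1* alone held 57 of the 123. A count was found for 17 and 7 of these untested genes in control cells and for 11 in each TRC library. The share of alignments that were not unique was lower in replicate 1 of each group, at 15.2% against 17.1% in control cells and 18.3% against 25.2% in TRCs. Gene counts were higher in replicate 1 of the controls and lower in replicate 1 of the TRCs. The part of either in these differences was not tested.

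**Figure D5:**
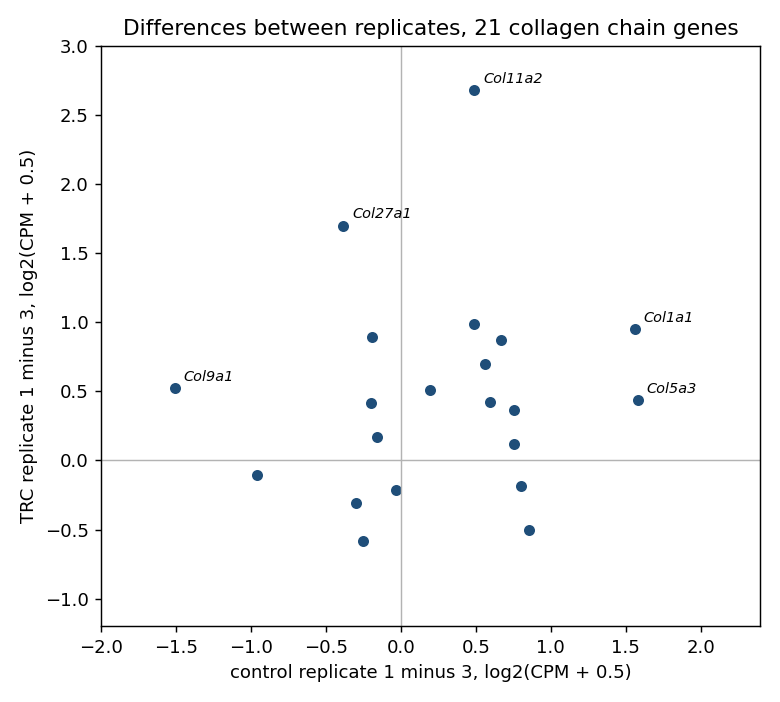
Difference between replicate 1 and replicate 3 of each tested collagen chain gene in log2(CPM + 0.5), control libraries on the x axis and TRC libraries on the y axis. *Col11a2* stands out at 2.68 in TRCs and *Col5a3* at 1.58 in control cells, and most points lie above 0 on each axis.

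Most calls among enzymes and factors of collagen biosynthesis were upward. Of 36 genes of a list covering hydroxylases, chaperones, export factors, propeptide proteinases and crosslinking enzymes, 25 passed the filter, 9 were upregulated (36.0%) and 1 was downregulated (4.0%), beside 8.81% and 7.05% of all genes. The median log2 fold change over these 25 was 0.278. *Plod2*, the lysyl hydroxylase of the collagen telopeptides, had 82.4 and 72.6 CPM in control cells and 517 and 605 CPM in TRCs (log2 fold change 2.86, FDR = 4.21e-27). *P4ha1* and *P4ha2*, the catalytic chains of prolyl hydroxylase, rose by 2.11 (FDR = 1.81e-11) and 2.18 (FDR = 2.77e-08) on the log2 scale. *Pcolce*, which enhances the trimming of procollagen at its C-terminal end, was the downregulated gene, with 64.0 and 84.2 CPM in control cells and 18.9 and 23.1 CPM in TRCs (log2 fold change -1.82, FDR = 1.55e-10).

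No collagen receptor gene was called among 6 tested (median log2 fold change -0.03). Of all genes tested 15.9% were called, a share that gives few calls in this list or in the 9 proteases below. In edgeR's exact test 1 receptor gene was under 0.05 before adjustment, with 0 calls by the quasi-likelihood test or DESeq2. Without control replicate 3, 1 receptor gene was called. No collagen-degrading protease gene was called among 9 tested (median 0.18), with 0 genes under 0.05 before adjustment and 0 calls by either other test, and 1 was called without control replicate 1. Matrix proteins that bind collagens changed in both directions, with 3 upregulated and 3 downregulated among 17 tested (17.6% each, beside 8.81% and 7.05% of all genes) and a median log2 fold change of -0.33. The quasi-likelihood test called 4 of them, without *Fbln1* and *Fn1*, and 3 were called without TRC replicate 1. The upregulated genes were *Thbs2* (thrombospondin 2, log2 fold change 2.55, FDR = 0.000219), *Lama5*, a laminin chain of basement membranes (0.99, FDR = 0.000709), and *Fbln1* (fibulin 1, 0.87, FDR = 0.0088). The downregulated genes were *Postn* (periostin, -2.16, FDR = 6.44e-06), *Nid1*, which links laminin to collagen IV (-1.39, FDR = 1.05e-05), and *Fn1* (fibronectin, -1.17, FDR = 0.00295).

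No gene of a cartilage list without collagens was upregulated, beside 8.81% of all genes, a share that gives few calls among 7 tested. Of its 19 genes 7 passed the filter and 2 were downregulated (28.6%, beside 7.05% of all genes), the median log2 fold change being -0.28, and neither call was made by the quasi-likelihood test or DESeq2, or without control replicate 1, TRC replicate 1 or TRC replicate 3. *Runx2*, a transcription factor of bone and hypertrophic cartilage, had 2.36 and 1.76 CPM in control cells and 0.626 and 0.649 CPM in TRCs (log2 fold change -1.69, FDR = 0.0124). *Matn3*, a cartilage matrix protein, had 2.34 and 1.93 CPM in control cells and 0.842 and 0.649 CPM in TRCs (log2 fold change -1.52, FDR = 0.0229). *Sox9*, the regulator of *Col2a1* in chondrocytes, had 6.91 and 5.38 CPM in control cells and 3.44 and 2.88 CPM in TRCs, without overlap, and its log2 fold change of -0.96 was not called (FDR = 0.114). *Acan*, the aggrecan of cartilage, was at or below 0.045 CPM in every library. Of the 7 list genes tested, 5 were lower in TRCs and 2, *Sox5* and *Hapln1*, were higher, neither of them called. *Sox5* had 38.2 and 42.7 CPM in control cells and 61.1 and 44.7 CPM in TRCs (log2 fold change 0.39, FDR = 0.301 in edgeR's exact test). The 7 chondrocyte markers, which share genes with this list, summed to 10.5 and 11.8 CPM in control cells and 7.17 and 7.19 CPM in TRCs.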

How the data were processed

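Polyadenylated RNA of 4 samples was sequenced by the authors in single-end stranded libraries, trimmed with Trimmomatic 0.35, aligned to GRCm38 with TopHat2 2.1.0 and counted per Ensembl gene with HTSeq, whose strand setting is not given in the sources used here. The deposited values are raw counts, and totals of alignments on no gene were removed here. Samples were grouped by their labels. Genes under 1 CPM in at least 3 of 4 libraries were removed, leaving 11483, and TRC and control cells were compared with TMM factors and the exact test of edgeR 4.0.16 (R 4.3.3), with Benjamini-Hochberg adjustment over all 11483 and a prior count of 0.125. Standard errors came from DESeq2 1.42.0. Symbols, positions and exon lengths came from GENCODE M21 and promoter windows from RefSeq (GRCm38.p6). Named members were all called chains, up to 3 further chains per class with the highest level per kilobase, and untested chains with at least 10 counts in a library; of each companion list, up to 3 called genes per direction, with *Sox9* and *Acan*. Other members named, such as *Col4a4* and partner chains, were chosen after their values were seen, as were *Sox5* and *Hapln1*. Members and lists were chosen with earlier results of these data known. Alternatives were other filters, scalings, tests and left-out libraries. Values per kilobase use the union of exons.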

Additional observations from a re-analysis of the deposited data

How the results depend on the processing

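With 2 libraries per group, every left-out-library fit assumes that the lone library varies like the other group. Each such fit kept the genes that passed the filter on all 4 libraries, so *Col2a1* stayed tested when a TRC library was left out. The 5 called collagen chain genes became between 2 and 5 when 1 library was left out, the upregulated ones (2) between 1 and 3 and the downregulated ones (3) between 1 and 2. *Col2a1* and *Col1a2* were called in each of these fits, and alone without TRC replicate 1, and without TRC replicate 3 *Col11a2* was called beside them. The upregulated count fell to 1 with at least 1 CPM asked of 3 libraries, where *Col2a1* was no longer tested, and to 1 (*Col2a1*) with the quasi-likelihood test, DESeq2 or a call that also asks for no overlap. *Col2a1* could not fail the no-overlap condition, since only the TRC libraries brought it to 1 CPM. The count of all genes called was 1822 in the exact test and 1054 in the quasi-likelihood test. The cartilage calls fell from 2 to 0 under that filter, the quasi-likelihood test and DESeq2, and ranged from 0 to 2 with a library left out. Leaving out a library gave 0 to 1 calls for receptors, 0 to 1 for proteases and 3 to 6 for matrix proteins. Fold changes turned sign with a library left out for *Col1a1* (-1.19 to 1.01), *Col5a3* (-0.16 to 1.44), *Col11a2* (-0.20 to 2.58), *Col27a1* (-1.37 to 0.59) and *Col4a5* (-0.22 to 0.38). With at least 10 counts asked of every library, *Col2a1* was no longer tested and *Col10a1* was called (FDR = 0.0473), as it was with trended dispersions (FDR = 0.0438), and without a filter *Col24a1* was called (FDR = 0.0473). Of the other values of named genes under other settings, 162 kept their direction and, where a test was run, their side of the threshold, while 7 lost and 2 gained a call. The ratio of mean CPM, 1 of these settings, has no test and was judged by direction only. Causes were not tested. Counts of 3 or fewer limit what can be said of 14 members.

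The replicate numbers did not show that samples pair: the replicate 1 minus replicate 3 differences of the groups correlated at r = 0.0267 across 11483 genes, which are not independent. With a replicate block in the quasi-likelihood test, 2 collagen chain genes were called, 1 in each direction (*Col2a1* and *Col1a2*), with FDRs of 0.0576 for *Col5a1*, 0.0742 for *Col4a1* and 0.191 for *Col11a2*. Biosynthesis calls went from 10 to 6 and cartilage calls from 2 to 0. With the block and a GC content and length correction, all 5 collagen chain genes were called. The quasi-likelihood FDRs were 0.000771 for *Col5a1*, 0.000321 for *Col4a1* and 0.0231 for *Col11a2*. This fit also called 13 biosynthesis, 1 protease and 10 matrix protein genes, and the log2 fold change of *Col4a5* turned to -0.0268. The share of all genes called in either block fit is not given here, so these counts have no background beside them.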
